A study of Mus musculus with 6 samples.

Results

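The interferon-inducible GTPases examined here were 9 genes, chosen by name: Igtp, Irgm1, Irgm2, Ifi47 and Iigp1 of the immunity-related GTPase (IRG) family, and Gbp2, Gbp3, Gbp5 and Gbp7 of the guanylate binding protein (GBP) family. Of the 9, 8 had at least 1 probe set whose platform annotation gave that symbol alone, 11 probe sets in all among 45037. Gbp5 had none, so its expression was not analysed here. Where a gene had 2 probe sets, the one with the highest mean over the arrays represented it and the other is given beside it.

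Intensities came from Affymetrix Mouse Genome 430 2.0 arrays, hybridised with RNA of c57BL/6 mouse macrophages grown from bone marrow. The cells of both groups lacked TNF receptors 1 and 2 (TNFR1-/-R2-/-). They were infected with a retrovirus for a chimeric receptor, whose outer part was that of mouse TNFR1 and whose membrane and inner parts were those of mouse RANK, and kept under puromycin (2 ug/ml) during 3 days of selection. In the mutant group (n = 3 arrays) inactivating mutations lay in the IVVY motif of the RANK part, and in the wild-type group (n = 3 arrays) that part was intact. All cultures were then kept for 24 hours with M-CSF at 44 ng/ml and TNFα at 10 ng/ml. The outer part of the chimera binds TNF. RNA of 6 dishes was pooled for each array and prepared in 3 independent assays, and each replicate number stands for 1 mutant and 1 wild-type array. The labels do not state that a replicate number is 1 assay. Neither group is free of receptor or of TNF, so the comparison concerns the motif and not the response to the ligand. The study asked which genes the RANK IVVY motif regulates in macrophages.

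Interferon-inducible GTPases are enzymes of cell-autonomous defence. Interferons induce them in macrophages, and they gather on the membranes around intracellular bacteria and parasites and help to disrupt them. Among the IRG proteins of the mouse, the regulatory Igtp (also called Irgm3), Irgm1 and Irgm2 sit on the cell's own membranes and hold the effectors Ifi47 (Irgd) and Iigp1 (Irga6) inactive there. The GBPs are larger GTPases that assemble on pathogen vacuoles and bacteria, and Gbp5 is known in mouse macrophages for its part in inflammasome activation. Interferon acts on such genes through 2 kinds of promoter element, the IRF element, bound by IRF factors, and the gamma-activated sequence.

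The promoters of measured genes are shown so that matches to these elements can be read in them. RefSeq gave windows on build GRCm38.p6 for Igtp, Irgm1, Irgm2, Ifi47, Gbp2, Gbp3, Gbp5 and Gbp7. These are not the 8 genes measured, since Gbp5 is among them and Iigp1 is not. Each window was searched over the 250 bases before the transcription start for GAAANNGAAA, the core of the IRF element, on both strands, and for TTCNNNGAA, the core of the gamma-activated sequence, whose letters read alike on both strands. GAAANNGAAA was found for 7 of the 8 genes and in 2.98% of all 32851 windows, and TTCNNNGAA for 4 of the 8 genes and in 7.02% of all windows. The 4 genes with both were Igtp, Irgm2, Gbp5 and Gbp7, or 44.4% of the 9 windows, against 0.332% of all windows. Among 7 windows of other interferon-inducible GTPases, 57.1% held GAAANNGAAA, 42.9% TTCNNNGAA and 42.9% both, so the motifs are not particular to these genes. The 120 bases before the start are printed 5′ to 3′ along the gene's strand, with matches to either motif in capitals:
Igtp: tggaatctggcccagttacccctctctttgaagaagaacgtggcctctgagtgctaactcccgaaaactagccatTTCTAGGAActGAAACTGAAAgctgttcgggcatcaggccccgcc
Irgm2: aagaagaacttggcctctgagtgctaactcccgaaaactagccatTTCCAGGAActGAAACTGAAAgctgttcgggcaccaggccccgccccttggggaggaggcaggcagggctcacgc
Irgm1: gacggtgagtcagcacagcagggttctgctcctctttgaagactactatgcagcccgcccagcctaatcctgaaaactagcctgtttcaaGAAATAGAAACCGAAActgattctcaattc
Ifi47: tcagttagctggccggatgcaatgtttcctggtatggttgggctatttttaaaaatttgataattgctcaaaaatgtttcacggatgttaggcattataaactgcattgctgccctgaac
Gbp2: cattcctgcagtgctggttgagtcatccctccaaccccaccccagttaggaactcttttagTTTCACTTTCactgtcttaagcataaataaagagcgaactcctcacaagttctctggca
Gbp3: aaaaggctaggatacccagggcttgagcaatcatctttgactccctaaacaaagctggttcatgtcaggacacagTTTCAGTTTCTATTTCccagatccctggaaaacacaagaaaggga
Gbp7: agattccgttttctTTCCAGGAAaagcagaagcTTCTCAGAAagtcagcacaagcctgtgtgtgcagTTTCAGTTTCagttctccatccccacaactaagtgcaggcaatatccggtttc

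These stretches lie at chr11:58199436-58199555 (+) for Igtp, chr11:58214857-58214976 (+) for Irgm2, chr11:48871421-48871540 (-) for Irgm1, chr11:49076467-49076586 (+) for Ifi47, chr3:142620543-142620662 (+) for Gbp2, chr3:142559924-142560043 (+) for Gbp3 and chr3:142530216-142530335 (+) for Gbp7. Igtp and Irgm2 share most of the stretch around the elements. Set against each other without gaps on their GAAANNGAAA match, they were identical at 87 of 90 bases. In both genes 2 bases lay between the TTCNNNGAA match and the IRF element, which began 34 bases before the start in Igtp and 64 in Irgm2. Irgm1 and Gbp3 each held 2 overlapping GAAANNGAAA matches, so the capitals there run over both. A second Gbp3 window, for another start, held neither motif, nor did the Ifi47 window. That says only that these letters are not in those windows.

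In the mutant all 8 genes had lower means than in the wild type, and 7 of the 8, all but Igtp, were lower in the mutant array of every same-numbered pair. Over all 22497 probe sets tested, 11.7% were lower and 13.8% higher in every pair, and the mutant's mean was lower for 48.3% and higher for 51.7%. Taken by replicate number, 8, 7 and 8 of the genes were lower in the mutant in numbers 1, 2 and 3, against 52.9%, 45.9% and 46.4% of all probe sets. The median log2 difference of the 8 genes, mutant minus wild type on log2(intensity + 16), was -0.60, against 0.00 over all probe sets tested. It was 0.05 without mutant array 1, 0.12 without wild-type array 3 and -1.44 without mutant array 3, each of which leaves a replicate number in 1 group only. Without both arrays of number 1, 2 or 3 it was -0.36, -0.73 and -0.72. All 11 probe sets of the 8 genes passed the filter on dim probe sets, and 9 of the 11 were lower in every pair. Within replicate numbers 1, 2 and 3 the median of the 8 genes was -1.16, -0.32 and -0.34, against -0.01, 0.01 and 0.01 over all probe sets.

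**Figure D1:**
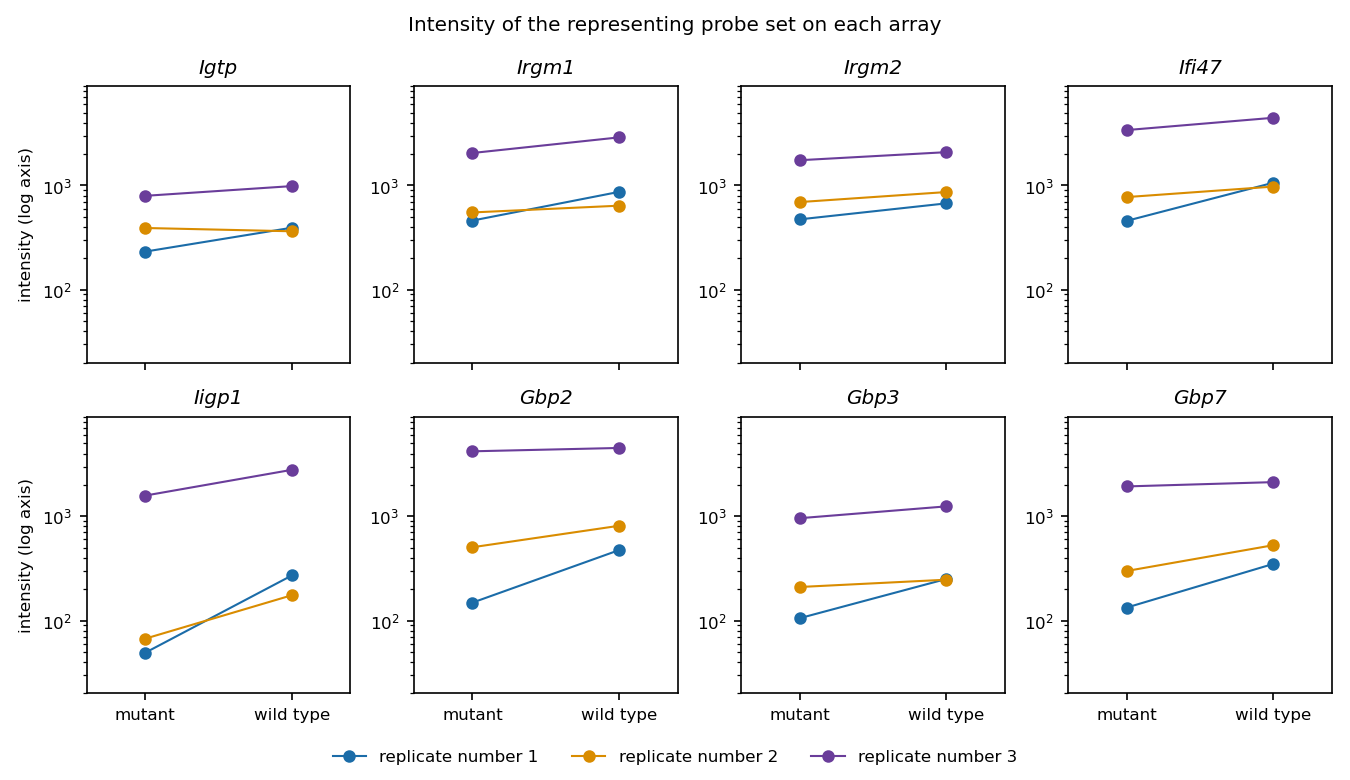
Intensity (log axis) of the representing probe set of each of the 8 genes on the mutant and wild-type array of each replicate number, 1 point per array, with lines joining same-numbered arrays. The arrays of number 3 lie above the others in every panel, and the mutant point is the lower one in every pair except number 2 of Igtp (mutant 391, wild type 363).

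None of these differences passed the test across all probe sets. By limma without a block, which also counts the spread between replicate numbers as error, 0 of the 22497 probe sets passed (0%), the adjusted p of each of the 11 GTPase probe sets was 0.99998, and 0 of the 11 had an unadjusted p under 0.05, against 198 of all probe sets (0.88%). Arrays of the same number deviated together from their group means and were treated as pairs. With the replicate number as a block limma again called 0 of 22497 (0%), with adjusted p of 0.859 to 0.860 for the 8 genes. There 5 of the 8 had an unadjusted p under 0.05, all lower in the mutant, against 5.29% of all probe sets, 2.78% of all being lower. As a random block the number let 1 probe set through (0.00445%), which was no GTPase. The groups overlapped for every gene, against 1.59% of all probe sets that were lower and 1.47% that were higher without overlap.

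The regulatory IRG genes had the smallest differences. Igtp (probe set 1417141_at) read 232, 391 and 795 on mutant arrays 1, 2 and 3, against 393, 363 and 986 on wild-type arrays 1, 2 and 3. The mutant array was lower in numbers 1 and 3 and higher in number 2, and the groups overlapped. Its mean log2 difference was -0.31 ± 0.58 SE, with a 95% interval of -0.82 to 0.20 when the replicate number was a block.

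Irgm1 (1418825_at), known in mice for its part in resistance to mycobacteria and in autophagy, read 461, 551 and 2049 in the mutant, against 868, 639.8 and 2893 in the wild type. Mutant array 1 was the lowest of the 6 and wild-type array 3 the highest. The log2 difference was -0.53 ± 0.81 SE, and the interval with the block was -0.97 to -0.09. Irgm2 (1417793_at), which sits on Golgi membranes, read 473, 693 and 1746 in the mutant, against 673, 865 and 2086 in the wild type. Its 3 same-numbered differences lay closest together of the 8 genes, at -0.50, -0.31 and -0.25. The mean was -0.35 ± 0.64 SE, with an interval of -0.60 to -0.11 with the block.

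The effector Iigp1, a GTPase that loads onto the vacuole of Toxoplasma, had the lowest mean difference of the 8 genes. Its representing probe set (1419043_a_at) read 49.2, 67.1 and 1582 in the mutant, against 271, 175 and 2793 in the wild type. Each mutant value was below its same-numbered wild-type value, by 4.40-fold, 2.30-fold and 1.76-fold on the log2(intensity + 16) scale. The log2 difference was -1.38 ± 1.65 SE, with a 95% interval of -5.54 to 2.77, and the interval with the block was -2.19 to -0.58 (unadjusted p = 0.00891, adjusted p = 0.859 by limma). The second probe set (1419042_at) read 24.2, 67.9 and 646 in the mutant, against 99.9, 74.1 and 1076 in the wild type. It was lower in the mutant of every pair too, but by -0.10 in number 2 where the first gave -1.20, and its mean of -0.79 differed from that of the first by 0.60 on the log2 scale.

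The effector Ifi47 (1417292_at) read 458, 774 and 3400.0 in the mutant, against 1063, 976 and 4460.0 in the wild type. The mutant was lower in each pair, with differences of -1.19, -0.33 and -0.39. Its mean was -0.63 ± 0.96 SE and its interval with the block -1.22 to -0.05. Of the 8 genes it lay closest to their median profile over the 6 arrays.

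The 3 GBP genes measured, neighbours of each other on chromosome 3, all gave their most negative difference in number 1. Gbp2, a GBP that gathers on parasite vacuoles, read 149, 505 and 4204 in the mutant, against 474, 811 and 4527 in the wild type (1435906_x_at). Its differences in numbers 1, 2 and 3 were -1.57, -0.67 and -0.11, so the groups were nearly level in number 3. The suffix of this probe set marks probes that may also bind other transcripts, but the second probe set (1418240_at) gave similar differences of -1.22, -0.68 and -0.09. The mean of the representing probe set was -0.78 ± 1.45 SE, with an interval of -1.65 to 0.09 with the block.

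Gbp7 (1434380_at), tied in mouse macrophages to the assembly of the phagocyte oxidase, read 133, 299 and 1936 in the mutant, against 349.7, 529 and 2129 in the wild type. It was lower in the mutant in each pair, at -1.29, -0.79 and -0.14, with a mean of -0.74 ± 1.16 SE and an interval of -1.43 to -0.05 with the block. On its second probe set (1425156_at) the pair of number 3 went the other way, at 835 on the mutant and 793 on the wild-type array. Gbp3 (1418392_a_at) read 105, 209.9 and 959 in the mutant, against 250.4, 247 and 1245 in the wild type. Its wild-type arrays 1 and 2 were level, and its differences were -1.14, -0.22 and -0.37, with a mean of -0.57 ± 1.01 SE and an interval of -1.17 to 0.02 with the block. The GBP genes are close relatives, and how far their probe sets bind each other's transcripts was not tested.

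**Figure D2:**
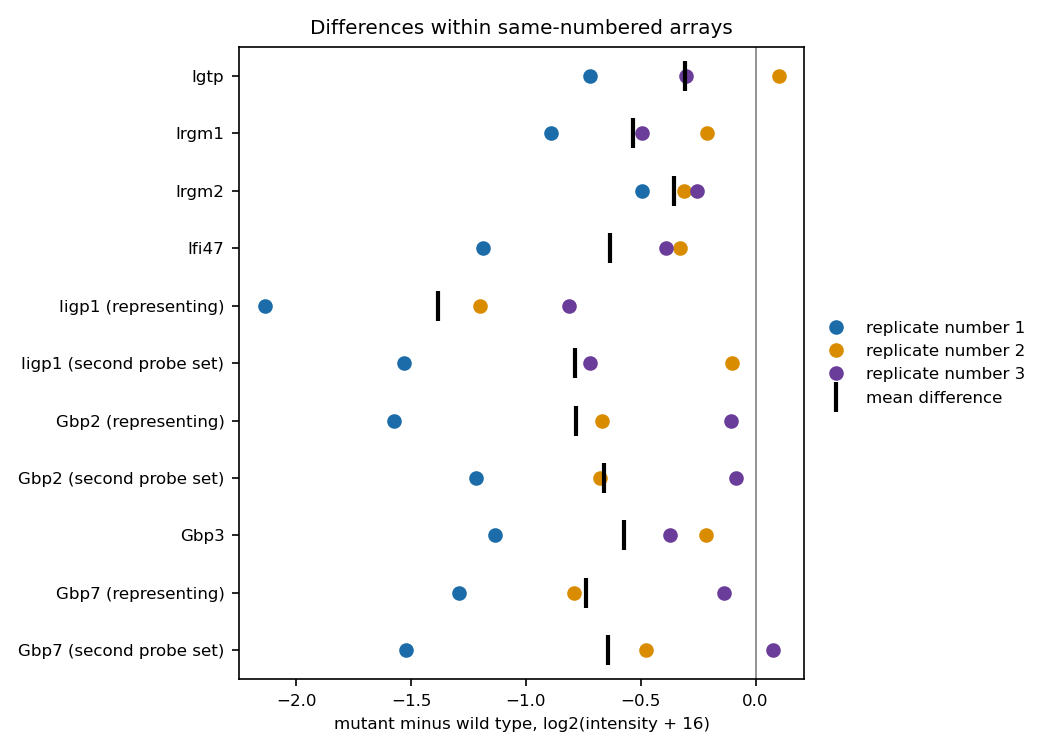
Difference of mutant minus wild type on log2(intensity + 16) within each replicate number (coloured points) and its mean (black bar) for the 11 probe sets. Number 1 gives the most negative difference for all 11 probe sets, and 2 points lie right of zero, number 2 of Igtp (0.10) and number 3 of the second Gbp7 probe set (0.07).

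The difference was most negative in number 1 for all 8 genes and all 11 probe sets, which held for 34.1% of all probe sets tested. Mutant array 1 was the lowest of the 6 arrays and wild-type array 3 the highest for all 8 genes, against 16.7% and 14.6% of all probe sets for each alone and 4.1% for both. Whether the difference itself varies between replicate numbers cannot be tested with 1 array per group in each.

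The GTPases varied more between replicate numbers than between the groups. In both groups array 3 was above arrays 1 and 2 for all 8 genes, against 23.9% of all probe sets. It was at least 2-fold above the mean of arrays 1 and 2 on the log2 scale for all 8 in both groups, against 4.09% of all probe sets tested. Iigp1 was 21.7-fold above that mean in the mutant and 12.0-fold in the wild type, Gbp2 14.4-fold and 7.14-fold, and Igtp, with the smallest excess, 2.55-fold and 2.54-fold. Replicate number held 86.6% to 94.0% of each gene's sum of squares over the 6 arrays and group 5.05% to 11.6%. The medians over all probe sets tested were 76.0% and 4.82%. The osteoclast markers were the other way round, with a median of 14.7% for replicate number and 80.8% for group. Acp5, the acid phosphatase used to stain osteoclasts, Ctsk, the collagen-degrading cathepsin K, and the matrix protease Mmp9 were lower on every mutant array than on any wild-type array. This held for 1.59% of all probe sets. These 3 genes were named because the groups had been told apart by them earlier, so their separation was known beforehand.

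**Figure D3:**
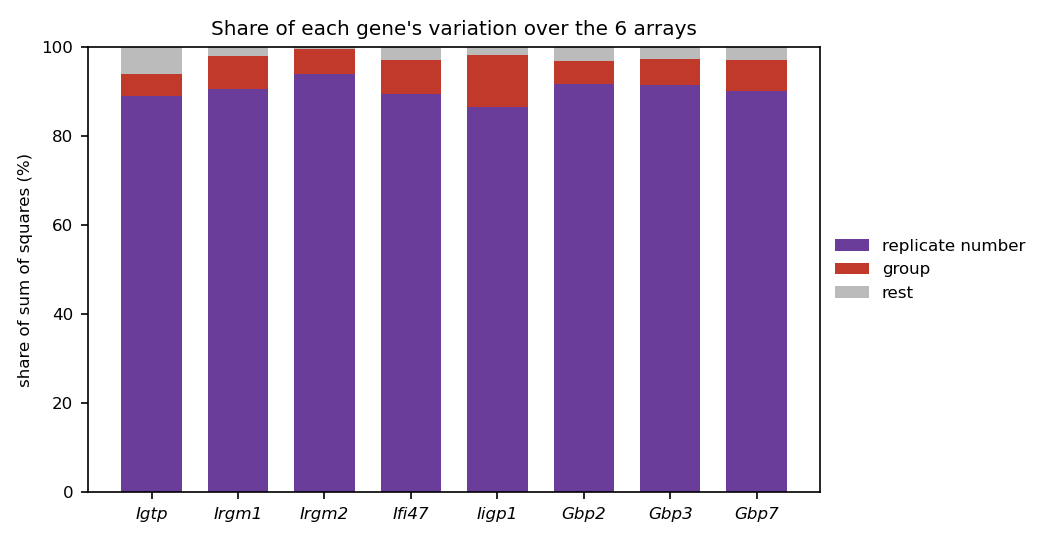
Share of each gene's sum of squares over the 6 arrays, in percent, that lies between replicate numbers, between the groups and in the rest, for the representing probe sets. Replicate number takes 86.6% (Iigp1) to 94.0% (Irgm2), and the group share is highest for Iigp1 at 11.6%.

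Markers of other cells were read on the same arrays. All 9 macrophage markers with a probe set read above 16 on every array, and their summed intensity was 200548 to 214850 on the mutant and 205880 to 210049 on the wild-type arrays. The 8 stromal markers summed to 62.5, 157 and 4638 on mutant arrays 1, 2 and 3, and to 59.8, 79.6 and 3348 on wild-type arrays 1, 2 and 3, so they were high on the arrays of number 3 in both groups, as the GTPases were. Their part in the GTPase levels was not tested. The osteoclast markers summed to 1117 to 1879 in the mutant, against 8533 to 26846 in the wild type, lower in the mutant as the GTPases were, and their part in the GTPase difference was not tested. In pooled RNA, fewer cells of a type and less RNA per cell cannot be told apart.

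Lymphoid cells, the usual makers of interferon gamma, had few markers above the floor. The 7 natural killer cell markers summed to 34.8 to 35.3 on mutant and 34.8 to 35.7 on wild-type arrays, and none read above 16. The T cell receptor genes Cd3d, Cd3e and Cd3g were at 4.18 to 7.60 on all arrays. The T cell costimulatory gene Cd28, the only 1 of its list above 16, read 599, 2604 and 6723 in the mutant against 963, 1489 and 5122 in the wild type. Cd28 was thus highest on the arrays of number 3 in both groups, as the GTPases were. The part of lymphoid cells in the GTPase levels was not tested. Of the 7 dendritic cell markers, Ccr7, a chemokine receptor of migrating dendritic cells, read 103 on wild-type array 3 and no other reading of the list was above 16. The 5 B cell markers summed to at most 28.7 on mutant and 30.6 on wild-type arrays, and of the 7 neutrophil markers S100a8 alone read above 16.

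Other GTPases listed as interferon-inducible also had lower means in the mutant. Of 23 listed symbols 8 had a probe set and 5 were tested. All 5 had the lower mean in mutant arrays, against 48.3% of all probe sets, with a median log2 difference of -0.60. Lower in every pair were 3, against 11.7% of all probe sets. Gbp6 was dim, at 9.74, 13.4 and 98.7 in the mutant against 20.03, 33.3 and 260.1 in the wild type, lower in each pair. Gbp8 was near the floor on most arrays and read 28.1 on mutant and 82.1 on wild-type array 3. Gm4951, an IRG relative, read 85.5, 188 and 2169 in the mutant, against 279.7, 210.1 and 2830.4 in the wild type. Mx1, a dynamin-like GTPase against viruses, read 85.9, 116 and 932 against 227, 91.0 and 1703, with the mutant higher in number 2. Irgq, the last of the 5, read 169, 263 and 213 in the mutant, against 195, 295 and 198 in the wild type. It differed by only -0.08 ± 0.23 SE and, unlike the others, was not highest on the arrays of number 3. Whether interferon induces Irgq was not tested here. Mx2 was not tested and lay near the floor except on the arrays of number 3, where it read 27.0 and 36.1 in mutant and wild type.

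Among the genes that carry the interferon gamma signal, Ifng itself read 5.38 to 5.50 in the mutant, against 5.33 to 5.51 in the wild type, below the median of every array, and Ifnb1, the beta interferon gene, read 5.05 to 6.18 and 4.89 to 5.11. Of 12 genes of the ligand, its receptor and its signalling 9 were tested, and the median log2 difference was -0.07. The mean was lower for 6 and higher for 3, against 48.3% and 51.7% of all probe sets. Lower in every pair were 2, against 11.7%. Of the receptor chains, Ifngr1 differed by 0.12 ± 0.16 SE and Ifngr2 by -0.30 ± 0.25. Irf1, the transcription factor that binds the IRF element, read 454, 868 and 1153 in the mutant against 836, 1108 and 1414 in the wild type, lower in each pair, with a log2 difference of -0.50 ± 0.39. Irf8, its myeloid relative, differed by 0.01 ± 0.29, the kinase Jak2 by -0.17 ± 0.22, and Socs3, a feedback inhibitor of cytokine signalling, by -0.48 ± 0.49.

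On the type I interferon side 9 of 12 genes were tested, 6 lower and 3 higher in the mean, 3 lower and 1 higher in every pair, with a median log2 difference of -0.14. Stat2, which with Irf9 forms the factor of type I interferon, differed by -0.86 ± 0.97 SE and Irf9 by -0.23 ± 0.27, both lower in each pair. The kinase Tyk2 differed by -0.14 ± 0.12 and the receptor chain Ifnar1 by 0.20 ± 0.22. Of 17 other interferon gamma targets tested 13 had a lower mean, with a median of -0.30. Lower in every pair were 9, against 11.7% of all probe sets, and 3 were lower without overlap, against 1.59%. Tap2, a peptide transporter of antigen presentation, read 282, 274 and 255 in the mutant against 352, 317 and 399.8 in the wild type, without overlap and with little change between replicate numbers. Gch1, which makes the cofactor of nitric oxide synthase, differed by -0.54 ± 0.23 SE, the transcription factor Batf2 by -0.30 ± 0.15, and Tap1 by -0.54 ± 0.29.

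**Figure D4:**
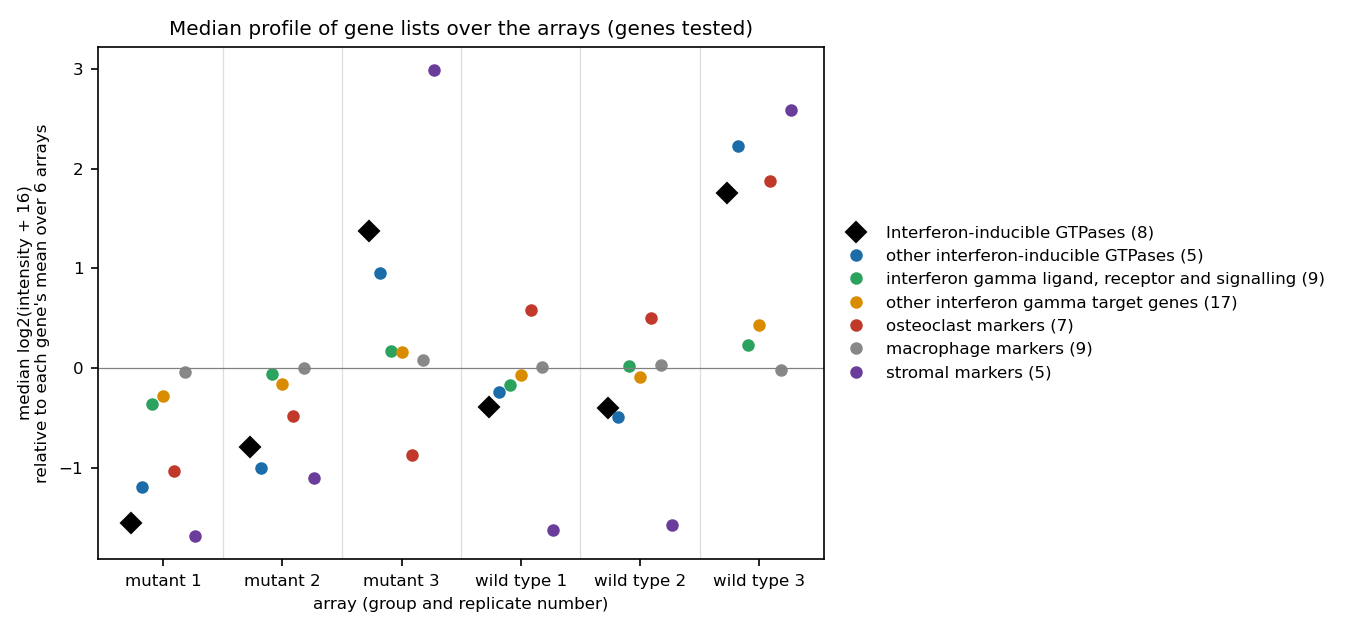
Median over the tested genes of each list of log2(intensity + 16) relative to the gene's own mean over the 6 arrays, for mutant arrays 1 to 3 and wild-type arrays 1 to 3, with the number of genes in brackets. The 8 GTPases (black diamonds) run from -1.55 on mutant array 1 to 1.76 on wild-type array 3, the stromal markers are high on both arrays of number 3, and the macrophage markers stay between -0.04 and 0.08.

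Genes that GTPases work with were measured too. The 12 autophagy conjugation genes, some of which load the IRG proteins onto vacuoles, had a median log2 difference of -0.12. Of these, 10 were lower in the mean and 6 in every pair, against 48.3% and 11.7% of all probe sets. Without overlap 2 were lower, against 1.59%. Of the 12 genes Sqstm1, an autophagy receptor, differed by -0.32 ± 0.17 SE and Atg5 by -0.31 ± 0.19. The conjugation genes Atg3 and Gabarapl2 differed by -0.13 ± 0.09 and -0.13 ± 0.10. Of these named genes only Atg3 was lower without overlap. Of the 8 inflammasome genes 7 were lower, 3 in every pair, with a median of -0.18. Gsdmd, the pore-forming gasdermin D, read 866, 947 and 1339.9 on mutant arrays against 1460.5, 2229.9 and 2314 in the wild type, without overlap and with a log2 difference of -0.92 ± 0.26 (unadjusted p = 0.0143 by limma). Il1b, the interleukin 1 beta gene, differed by -1.37 ± 1.20, and only wild-type array 3, at 764, read above 35.01. The caspase gene Casp4 and the DNA sensor gene Aim2 differed by -0.33 ± 0.44 and -0.27 ± 0.50.

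All 5 phagocyte oxidase genes tested had a lower mean in the mutant, against 48.3% of all probe sets, with a median of -0.16. Lower in every pair were 3, against 11.7%, and 2 were lower without overlap, against 1.59%. The GTPase gene Rac2 differed by -0.47 ± 0.19 SE, and the subunit genes Ncf1, Ncf4 and Cyba by -0.16 ± 0.10, -0.22 ± 0.17 and -0.12 ± 0.14. In limma no list had a gene with an adjusted p under 0.05, without the block or with it, beside 0% of all probe sets. At an unadjusted p under 0.05 by limma without the block, there were 5 of the 7 osteoclast markers tested, against 0.88% of all probe sets. There were also 1 of the 17 other interferon gamma targets, Tap2, and 1 of the 8 inflammasome genes, Gsdmd. With the block these counts were 6, 4 and 1, against 5.29% of all probe sets. They were 2 of the 9 type I interferon genes, 1 of the 9 interferon gamma signalling genes and 2 of the 5 oxidase genes. Of the 5 other GTPases there was 1, and of the 12 autophagy genes, 9 macrophage and 5 stromal markers 0.

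The genes whose profile over the 6 arrays was most like the median of the 8 GTPases were sought among 10355 other tested genes, by the root mean square difference of log2 values centred on each gene's own mean. The nearest were Usp18, which dampens type I interferon signalling (0.101), Cmpk2, a nucleotide kinase (0.158), Ifit1, which binds viral RNA (0.185), Slfn8, a schlafen gene (0.187), and Fbxo32, a ubiquitin ligase subunit (0.224). The 8 GTPases themselves lay at 0.0424 (Ifi47) to 0.897 (Iigp1) from their median. Usp18 read 234, 487 and 1820.4 in the mutant against 611, 588 and 2719.7 in the wild type, lower in each pair. Since Usp18 was picked for its likeness to the GTPases, this adds no separate support to their difference. These profiles come from the same 6 arrays, and replicate number held most of the variation of each GTPase. Of the 5, RefSeq windows were at hand for 3, and GAAANNGAAA was found for 2 of these, Ifit1 and Slfn8.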

How the data were processed

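Arrays were grouped and numbered by their titles. The authors deposited 1 intensity per probe set and array, on a linear scale. Per the submitters' processing notes GCOS and GCRMA were used, with no version named. The order and role of each tool are not stated in these notes. GCRMA makes arrays alike in distribution and draws dim probe sets towards a floor. The 75th percentiles were 160.5 to 164 and the medians 8.86 to 9.38, so no further normalization was applied. With 3 arrays a group, array number limits precision.

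Of 45101 probe sets 64 controls were left out. The platform annotation gave 1 symbol for 34945 of the rest, several for 932 and none for 9160. Intensities were transformed to log2(intensity + 16), which understates the change of dim genes. Probe sets above the median of their array on at least 3 arrays were tested (22497), two-sided, with limma 3.58.1 in R 4.3.3 (lmFit, eBayes) and Benjamini-Hochberg adjustment at 0.05. The fits were tested on simulated data. SE are moderated and come from the fit without a block, so they also count the spread between replicate numbers. Intervals with the block come from limma with the replicate number as a term.

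The labels describe 3 independent assays without tying them to replicate numbers. Deviations of same-numbered arrays from their group means correlated at 0.797, 0.671 and 0.845 for numbers 1, 2 and 3. From this alone the numbers were taken to pair. Pairs of unlike number gave -0.618 to -0.0138. Deviations cancel out over the 3 arrays of a group, so these negative values are tied to the positive ones and are no separate support. Whether each assay had its own mice is not stated, so p-values measure the spread between these preparations.

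The members and lists were chosen with earlier results of these data known. The rule named the members, up to 4 tested genes of each other list with the smallest p, Irf1, Irf8, Ifngr1, Ifngr2, Ifng, Ifnb1, Mx1, Mx2, Acp5, Ctsk and Mmp9, and the 5 nearest profiles. Cd28, Cd3d, Cd3e, Cd3g, Ccr7 and S100a8 were named from the marker lists after their values were seen. Irgq was added to complete the tested genes of its list. Alternatives changed the pseudocount, filter, normalization, block, probe set rule and arrays.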

Additional observations from a re-analysis of the deposited data

How the results depend on the processing

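No GTPase probe set passed limma under any of the 17 alternatives, where the smallest adjusted p of a member was 0.859. Over all probe sets 0 passed in each alternative except the random replicate block, which called 1. A fixed replicate block called 0 and changed no other call. With 1 array of each group in every number it cannot move the median log2 difference of the 8 genes, which stayed at -0.60. That median was -0.63 with a pseudocount of 1, -0.55 with 64 and -0.60 with quantile normalization. Leaving out single arrays or both arrays of a number moved it between -1.44 and 0.12. Single left-out arrays leave a replicate number in 1 group only. Without mutant array 1 the median was 0.05, without wild-type array 3 it was 0.12, and without mutant array 3 it was -1.44, whereas without both arrays of number 1, 2 or 3 it was -0.36, -0.73 and -0.72. Of 136 values of single genes under the alternatives 12 changed sign, 5 without mutant array 1 and 7 without wild-type array 3. Either block and either filter setting leave these differences unchanged by construction, so those values could not change sign. The same holds for the mean of probe sets in genes with 1 probe set. Over the left-out arrays the log2 difference ranged from -2.07 to 0.27 for Gbp2, -1.43 to 0.18 for Gbp3, -1.80 to 0.058 for Gbp7, -1.46 to 0.070 for Ifi47, -0.76 to 0.14 for Igtp, -2.86 to -0.19 for Iigp1, -1.20 to 0.11 for Irgm1 and -0.88 to 0.12 for Irgm2. The count of 7 genes lower in every pair was 7 with either pseudocount, quantile normalization or the mean of probe sets. Without both arrays of a number it was 7 to 8, but with fewer pairs to meet it could not fall.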

Other observations

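Further interferon targets, chosen after their values were seen, stood apart on the arrays of number 3. Cxcl9, a chemokine gene induced by interferon gamma, read 149.9 on mutant array 3 and 361 on wild-type array 3 but no more than 7.85 elsewhere, and was too dim to be tested. Ccl5, another chemokine gene, read 301, 194 and 3801 in the mutant against 204, 77.5 and 4538 in the wild type, higher in the mutant in numbers 1 and 2. Fcgr1, the high-affinity IgG receptor gene, read 2673, 3174 and 6595 against 3998, 1062 and 9855, higher in the mutant in number 2. Irf7, the master factor of type I interferon production, went against the GTPases in number 2 as well, with 337, 881 and 1656 in the mutant against 1193, 349.6 and 3016 in the wild type. By limma Ccl5, Fcgr1 and Irf7 differed by 0.48 ± 1.85, 0.14 ± 0.87 and -0.45 ± 0.95 on the log2 scale (SE), and none of the 3 passed.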
